A study of Mus musculus with 6 samples.

Results

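The genes of the matrix metalloproteinases (Mmp), of the ADAMTS proteases (Adamts) and of the tissue inhibitors of metalloproteinases (Timp) were examined for accessible chromatin in mouse embryonic fibroblasts that lack Ezh2. All autosomal protein-coding genes of the RefSeq table for GRCm38 with the symbols Mmp, Adamts or Timp followed by a number were taken, 45 of 20665 autosomal genes: 23 Mmp, 19 Adamts and 3 Timp genes. The assay was ATAC-seq, which marks open DNA by where the enzyme Tn5 can reach it and leave sequencing adapters. Its 3 groups had 2 samples each: Ezh2 -/- cells, Ezh2 -/- cells given Ezh2 back from the retroviral vector pMSCV, and wild-type cells. All were embryonic fibroblasts of line A or C2, immortalised with c-myc, so all groups carry that oncogene. Both Ezh2 -/- samples carry C2 in their titles. The values below come from 1 list that the authors deposited for the Ezh2 -/- cells, of intervals called accessible. It has no value per replicate and no read count, so the depth is unknown, no replicate error can be given and no genotypes are compared.

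Matrix metalloproteinases are zinc endopeptidases, made as inactive proenzymes, that cut collagens and other proteins of the extracellular matrix. ADAMTS enzymes are secreted relatives with thrombospondin repeats that cut proteoglycans and process procollagen. TIMPs bind the active site of these enzymes and block it. Fibroblasts secrete many of these proteins, and several Mmp genes are induced by growth signals through AP-1, the Fos and Jun factors. Ezh2 is the enzyme that places methyl groups on lysine 27 of histone H3, as part of the Polycomb complex PRC2.

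The list held 21835 intervals from 19215 called regions, and its lowest total signal was 15316. A gene without an interval is one where the list holds none, not one shown to be closed. Parts of called regions can be missing from the list. A region near Timp3 (total signal 72956), for example, has its maximum between its listed pieces. Total signal is the area under the coverage of a called region and maximum signal its height, both in the authors' unit. As a check of the label, 11 of 15 fibroblast marker genes had an interval within 1 kb of a gene end, among them Fbn1, Col1a1 and Vim, while Pdgfra, Thy1, Dcn and Lum had none. Of 26 autosomal markers of epithelial, haematopoietic, endothelial and neuronal cells, 7 had one (Cldn4, Krt8, Cd68, Cd79a, Flt1, Rbfox3 and Map2), and Epcam, Cdh1, Ptprc, Pecam1 and Cdh5 were among those without. The neuronal markers had one in 2 of 4, and Rbfox3 had a total signal of 354291. Of all autosomal protein-coding genes, 49.7% had one.

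By median, the CpG content of the promoters was lower in the Mmp genes clustered on chromosome 9 than in the others. The median ratio of observed to expected CpG was 0.136 in that cluster. It was 0.635 in the other Mmp genes, 0.722 in Adamts and 0.714 in Timp genes. Single genes outside the cluster ran from 0.09 to 1.013. Adamts13 (0.09), Mmp21 (0.09) and Timp4 (0.104) lay below the median of the cluster. Of the promoters, 4 are shown here with every CG dinucleotide in capitals. They are RefSeq sequences of GRCm38.p6, from 250 bases before to 50 after an annotated start site, and 31 of the 45 genes matched that table. Such a site can lie inside the gene. That of Adamts20 is at 94404350, in a gene on the minus strand that begins at 94432074. Timp2 and Adamts14 had the highest total signals among genes with an interval over the promoter. The promoter of Adamts2 is CpG-rich and had no interval, and Mmp13 stands for the CpG-poor promoters of the chromosome 9 cluster. The last pair was chosen after the values had been seen.
Timp2, chr11:118355362-118355661, minus strand: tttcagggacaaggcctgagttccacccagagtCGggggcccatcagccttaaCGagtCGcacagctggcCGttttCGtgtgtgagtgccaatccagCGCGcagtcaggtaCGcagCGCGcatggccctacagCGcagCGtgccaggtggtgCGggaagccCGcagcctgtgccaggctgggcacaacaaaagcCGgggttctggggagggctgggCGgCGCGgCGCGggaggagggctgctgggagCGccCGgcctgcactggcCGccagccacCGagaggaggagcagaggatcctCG
Adamts14, chr10:61273370-61273669, minus strand: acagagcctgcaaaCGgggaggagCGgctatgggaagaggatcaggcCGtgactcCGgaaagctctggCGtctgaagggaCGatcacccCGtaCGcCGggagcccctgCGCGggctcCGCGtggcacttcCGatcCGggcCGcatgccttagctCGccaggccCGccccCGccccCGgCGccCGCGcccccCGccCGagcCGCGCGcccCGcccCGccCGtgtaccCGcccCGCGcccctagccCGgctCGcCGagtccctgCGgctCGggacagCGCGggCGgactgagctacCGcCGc
Adamts2, chr11:50601835-50602134, plus strand: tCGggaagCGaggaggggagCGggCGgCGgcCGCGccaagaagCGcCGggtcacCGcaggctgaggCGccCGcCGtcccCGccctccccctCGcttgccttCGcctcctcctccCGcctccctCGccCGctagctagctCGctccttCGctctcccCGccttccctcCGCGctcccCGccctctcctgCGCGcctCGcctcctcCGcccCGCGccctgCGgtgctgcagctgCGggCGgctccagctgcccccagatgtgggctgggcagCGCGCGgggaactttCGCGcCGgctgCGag
Mmp13, chr9:7272264-7272563, plus strand: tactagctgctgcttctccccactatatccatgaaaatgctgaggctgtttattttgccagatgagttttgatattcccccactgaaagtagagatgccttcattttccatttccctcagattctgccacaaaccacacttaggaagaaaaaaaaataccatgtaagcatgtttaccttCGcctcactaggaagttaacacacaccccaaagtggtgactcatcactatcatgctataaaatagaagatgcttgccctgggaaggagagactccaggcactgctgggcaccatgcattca
Timp2 held 25 CG dinucleotides, Adamts14 44, Adamts2 41 and Mmp13 1. Their ratios of observed to expected CpG were 0.718, 1.013, 0.948 and 0.072. Adamts2 therefore had nearly the CpG content of Adamts14, which encodes a related procollagen N-proteinase, but no interval.

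An interval lay within 1 kb of an end of 18 of the 45 genes (40.0%), and the same was true of 49.7% of all autosomal protein-coding genes. The families differed in their counts, with 8 of 23 Mmp genes (34.8%), 9 of 19 Adamts genes (47.4%) and 1 of 3 Timp genes (33.3%). The low Mmp count came from the chromosome 9 cluster, where 0 of 10 genes had a gene-end interval, whereas 8 of the 13 other Mmp genes did (61.5%). The bodies of the genes, without the 1 kb at either end, held an interval in 23 of 45 genes (51.1%), against 45.6% of all autosomal genes. Within 50 kb of the gene, 32 of 45 had an interval (71.1%), against 74.0%. The shares over all 45 genes were thus within 10 percentage points of the background at each distance, and the spread lay between the subgroups. No test was made of these shares, since the list has no replicates and the genes were chosen with earlier results of these data known.

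**Figure D1:**
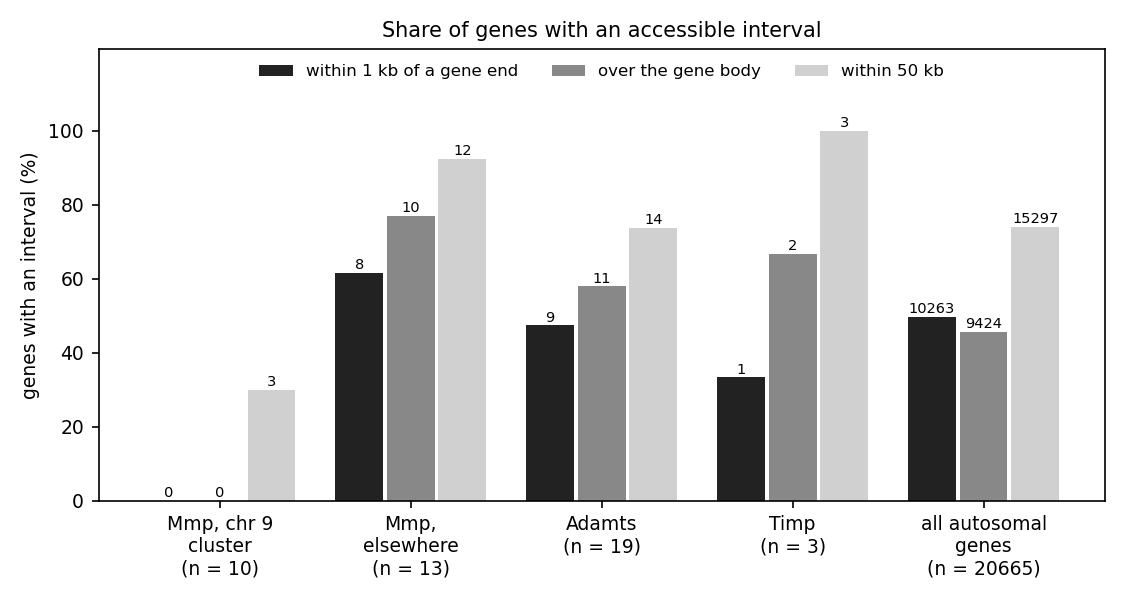
Percent of genes with an accessible interval within 1 kb of a gene end, over the gene body and within 50 kb, for the 10 Mmp genes of the chromosome 9 cluster, the 13 other Mmp genes, the 19 Adamts genes, the 3 Timp genes and all 20665 autosomal protein-coding genes. Numbers above the bars are genes, and the cluster stands at 0 for both gene ends and bodies.

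Gene length differed between the families, with medians of 12.729 kb for Mmp, 114.048 kb for Adamts, 49.094 kb for Timp and 17.491 kb for all autosomal genes. Over the gene with 50 kb at either side, the median density was 0.91 intervals per 100 kb for all 45 genes and 1.52 for all autosomal genes. Outside the cluster the Mmp genes had a median of 3.85 per 100 kb, the Adamts genes 0.77 and the Timp genes 6.71. Per length, the neighbourhoods of the Adamts genes were therefore sparser than those of the Mmp genes outside the cluster. Their gene-end share was lower too (47.4% against 61.5%). Over all Mmp genes, with the cluster, the median was 0.91 per 100 kb, close to that of the Adamts genes. These densities count pieces of a called region separately and include intervals at the ends of other genes. Mmp23, at 3.85 per 100 kb, had 4 intervals, all outside the gene and within 1 kb of the end of another gene. Altogether 146 different intervals lay within 50 kb of the 45 genes.

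**Figure D2:**
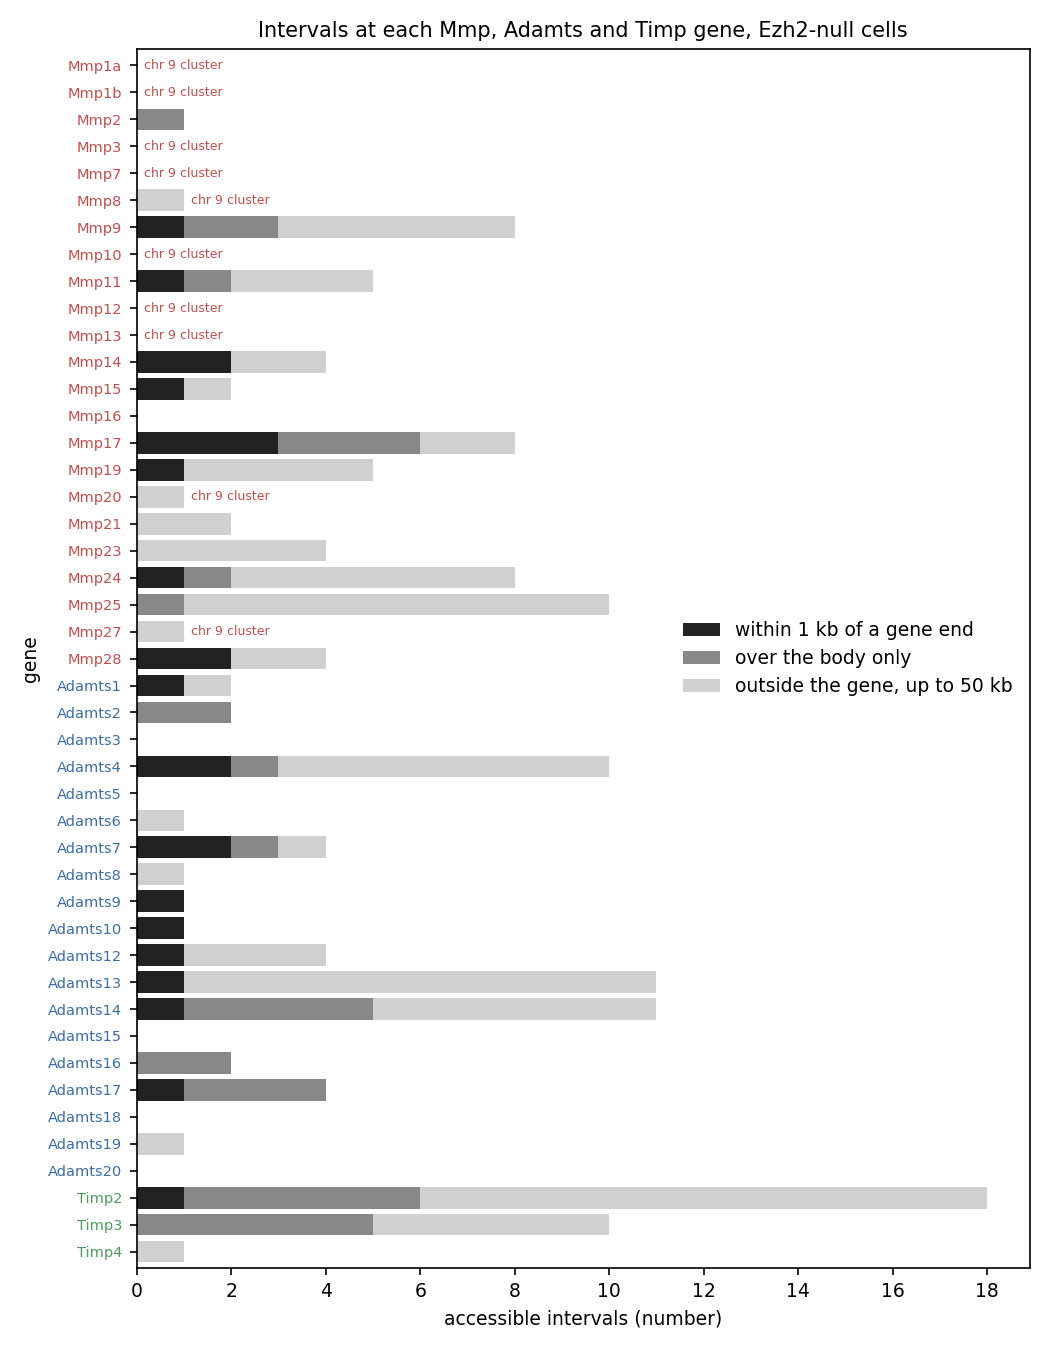
Number of accessible intervals at each of the 45 genes, split into those within 1 kb of a gene end, those over the body only and those outside the gene up to 50 kb away. Timp2 has 18, the most of the 45, and 13 genes have none, 7 of them in the chromosome 9 cluster.

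Collagenases, stromelysins, matrilysin and metalloelastase make up most of the cluster on chromosome 9, which spans 7272514 to 7699585 (427.1 kb, mm10) and holds no other protein-coding gene of the table. In order of position it holds the collagenase Mmp13, the macrophage elastase Mmp12, the collagenase Mmp1b, the stromelysin Mmp3, the collagenase Mmp1a, the stromelysin Mmp10, the neutrophil collagenase Mmp8, then Mmp27, the enamelysin Mmp20 and the matrilysin Mmp7. A single interval lay in it, at 7594529 to 7595937 (1409 bp, total signal 16064, maximum 37), which is 0.33% of its length. That total signal is close to the lowest of the list, and the interval overlaps the non-coding gene Gm31751. It lies 12.6 kb from Mmp27, 26.0 kb from Mmp8 and 32.3 kb from Mmp20, so these 3 genes had an interval within 50 kb and the other 7 had none. Among those, the nearest interval was 62.9 kb from Mmp7, 84.3 kb from Mmp10, 86.6 kb from Mmp13, 117.7 kb from Mmp1a, 138.6 kb from Mmp3, 158.5 kb from Mmp12 and 181.8 kb from Mmp1b.

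Below that interval the list was empty for 408.6 kb, and above it for 166.6 kb. The 3 protein-coding genes below the cluster, Ddi1, Dync2h1 and Dcun1d5, had no gene-end interval either, although Dcun1d5 held an interval in its body (total signal 23228, maximum 39). Above the cluster, Tmem123 had a gene-end interval of total signal 44317 and maximum 50. Birc2, an inhibitor of apoptosis, had one of 45183 and 54, and its neighbour Birc3 had none. Apart from its single interval, the list was thus empty from the body of Dcun1d5 to Tmem123. On the whole of chromosome 9, 43.5% of protein-coding genes had a gene-end interval. Mmp1a and Mmp1b are near copies of each other, and the sources used here do not say how the authors placed reads that match several sites.

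**Figure D3:**
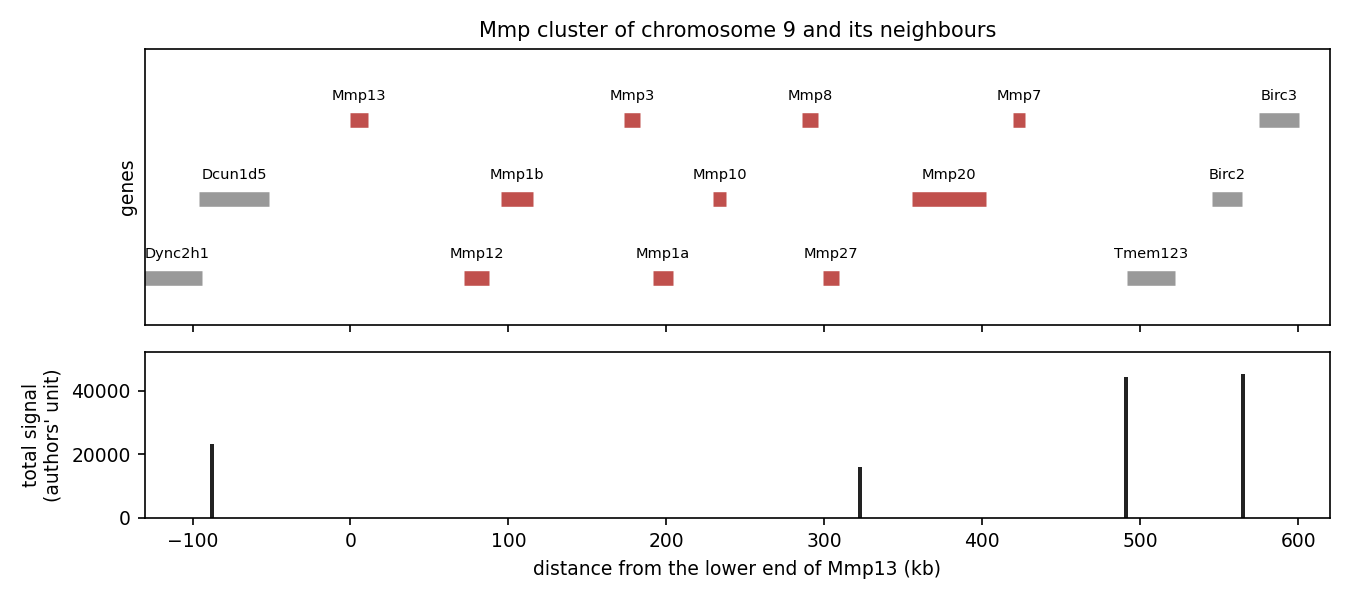
Upper panel, protein-coding genes of the chromosome 9 Mmp cluster (red) and their neighbours (grey) by distance in kb from the lower end of Mmp13. Lower panel, total signal of each accessible interval in the authors' unit, with bars drawn at least 2.5 kb wide. The single interval among the Mmp genes, at 16064, lies between Mmp27 and Mmp20.

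The promoters of the cluster shared short sequences that most other promoters of the genome lack. The AP-1 motif TGANTCA, which reads the same on both strands, was found in 8 of the 10 cluster genes, in none of the 21 other Mmp, Adamts and Timp genes with a promoter sequence, and in 8.23% of 16457 autosomal genes. The TATA motif TATAAA, searched on both strands, was found in 9 of the 10, in 2 of the other 21 and in 15.01% of all. Where a gene had several promoters in the table, a match in any of them counted. For Mmp12 both motifs lay in the promoter of the start site at 7347374, inside the gene. The promoter at its gene start, 7344397, had neither. The stretches that hold the AP-1 motif are shown with it and the next TATA motif in capitals. They do not overlap.
Mmp13, chr9:7272473-7272538, plus strand: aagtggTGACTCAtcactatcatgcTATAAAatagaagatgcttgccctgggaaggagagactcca
Mmp12, chr9:7347324-7347389, plus strand: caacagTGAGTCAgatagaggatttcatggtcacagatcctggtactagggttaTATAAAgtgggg
Mmp1b, chr9:7388060-7388125, minus strand: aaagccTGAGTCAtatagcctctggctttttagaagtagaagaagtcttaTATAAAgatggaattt
Mmp3, chr9:7445770-7445835, plus strand: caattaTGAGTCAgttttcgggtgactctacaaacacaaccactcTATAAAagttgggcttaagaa
Mmp1a, chr9:7464062-7464127, plus strand: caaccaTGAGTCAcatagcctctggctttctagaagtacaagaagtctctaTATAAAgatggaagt
Mmp10, chr9:7502273-7502338, plus strand: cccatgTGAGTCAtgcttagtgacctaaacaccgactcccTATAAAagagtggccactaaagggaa
Mmp20, chr9:7628130-7628195, plus strand: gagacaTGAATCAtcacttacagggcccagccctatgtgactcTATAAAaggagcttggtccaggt
Mmp7, chr9:7692021-7692086, plus strand: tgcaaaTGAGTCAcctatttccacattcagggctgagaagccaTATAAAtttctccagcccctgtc
The TATA motif began 19 to 48 bases after the start of the AP-1 motif, in the same orientation in all 8. Its place relative to the annotated start site varied. With that site as base 1, its first base ran from -58 (Mmp20) to 5 (Mmp12). Mmp1a and Mmp1b had nearly the same stretch, with distances of 45 and 44 bases. None of these promoters was covered by an interval. A match is a description of the letters, and neither AP-1 binding nor transcription was measured.

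Of the 6 membrane-type enzymes, which are anchored at the cell surface, 4 had a gene-end interval. Mmp14, the membrane-type enzyme that activates proMmp2, had an interval over its start at 54430321 to 54433893 on chromosome 14 (total signal 30936, maximum 21), and another 270 bp beyond its other end (45031 and 24). Mmp15 had an interval of 1830 bp over its start on chromosome 8 (50829 and 18), whose maximum lay 25 bp from the start site. Mmp17 on chromosome 5 had the highest total signal at a gene end of this group, with a called region of total signal 136224 and maximum 53 in 3 pieces from 129582149 to 129595506, the maximum 3 bp from the lower end of the gene. A further called region (66363 and 20) covered its upper end. Mmp24 had its interval at the 3′ end, and its CpG-rich promoter (ratio 0.918) was not covered. Mmp25 had an interval of 1164 bp in its body (17070 and 13), and Mmp16 stood furthest from any interval of all 45 genes, at 1450.8 kb. The group thus ran from an interval at both ends to an empty surrounding.

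The gelatinases both held intervals, but not in the same place. Mmp2, a gelatinase made by fibroblasts, had none within 1 kb of its ends and a single interval inside the gene, at 92849080 to 92850994 on chromosome 8 (31281 and 38), 2427 bp short of its upper end. Mmp9 had 1 over its lower end (2048 bp, 23836 and 12) and 2 in its body that belong to a called region of 62970 and 24. The interval at the lower end of Mmp9 did not hold the maximum of its called region, and that maximum, 12, was above only 0.3% of the values of all genes with a gene-end interval. Mmp11, a stromelysin of stromal cells that lies outside the cluster, had its interval at the 3′ end (70653 and 38). Among the remaining Mmp genes, Mmp19 had the highest total signal at a gene end of all 45 genes (153759, maximum 58), in an interval of 12388 bp over its upper end. Mmp28, or epilysin, had an interval over its start (26670 and 25) and at its other end (19519 and 39). Mmp21 and Mmp23 had none in or at the gene, with the nearest at 28.1 kb and 14.1 kb.

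For 4 of the 18 genes with a gene-end interval, Mmp11, Mmp19, Mmp24 and Adamts13, every such interval also came within 1 kb of the end of another protein-coding gene. In all 4 the maximum lay nearer to the end of the neighbour. For Mmp11 it was 60 bp from an end of Smarcb1, a chromatin remodeller subunit, and 1547 bp from that of Mmp11. For Mmp19 it was 78 bp from an end of Dnajc14 or Tmem198b and 4637 bp from that of Mmp19. For Mmp24 the distances were 11 bp, to Eif6 or BC029722, and 876 bp, and for Adamts13 they were 108 bp, to Cacfd1, and 338 bp. In the 3 other intervals that reached a neighbour, at Adamts4, Mmp14 and Mmp28, the maximum lay nearer to the end of the protease gene. Without intervals that reach another gene, 14 of the 45 genes and 5 of 23 Mmp genes had a gene-end interval (31.1% and 21.7%), against 33.3% of all autosomal genes counted the same way.

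Among the Adamts genes, the proteoglycanases, which cut aggrecan and versican, had a gene-end interval in 3 of 7. Adamts4 had the highest total signal at a gene end of the family (119244, maximum 56), in an interval of 8448 bp over its lower end at 171245453 to 171253900 on chromosome 1. Adamts1 had an interval of 4470 bp over its start (63227 and 33), and Adamts9 1 of 3491 bp (37421 and 39). Adamts5, Adamts8, Adamts15 and Adamts20 had none at the gene, and only Adamts8 of these had an interval within 50 kb, at 21.6 kb. Adamts1 and Adamts5 are neighbours 55.0 kb apart on chromosome 16, and the nearest interval to Adamts5 was that over Adamts1, 54.3 kb away. Adamts15 and Adamts8, 20.1 kb apart on chromosome 9, had no interval at either gene. The neighbouring pairs thus differed, with an interval at 1 gene of the first and at neither gene of the second.

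Of the 3 procollagen N-proteinase genes, which trim the amino-terminal propeptide of fibrillar collagens, Adamts14 alone had a gene-end interval, over its start at 61271679 to 61276462 on chromosome 10 (72853 and 31). It held 4 more intervals in its body. Adamts2, the main enzyme for procollagen I, had 2 weak intervals deep in a gene of 205489 bp (18179 and 13, 17769 and 32), and Adamts3 had none within 314.5 kb. Adamts7 and Adamts12, which cut cartilage oligomeric matrix protein, both had one. Adamts7 had intervals at both ends (15535 and 20, 40686 and 24), and Adamts12 had 1 over its start (48406 and 23). Adamts13, the protease of von Willebrand factor, had its interval at the 3′ end (50429 and 37). Of the other 6, Adamts10 (38932 and 28) and Adamts17 (25945 and 36) had one, Adamts16 had 2 in its body (45360 and 30, 18464 and 15), and Adamts6, Adamts18 and Adamts19 had none in or at the gene.

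The Timp genes had different patterns. Timp2, which inhibits Mmp2 and also serves its activation by Mmp14, had an interval over its start at 118351570 to 118356625 on chromosome 11 (92458 and 52), with the maximum 73 bp from the start site. It had 5 more in its body, which included pieces of 2 called regions of higher total signal than that at its start, 191945 (maximum 83, outside the gene) and 164159 (maximum 52). It had 18 within 50 kb, the most of the 45 genes, against a median of 2 for all autosomal genes. Timp2 lies on chromosome 11 beyond 90 Mb, where 77.2% of genes had a gene-end interval and the median number within 50 kb was 10. Timp3, which binds to the matrix and lies inside Syn3, had no interval at its ends but 5 in its body, among them 1 of 9467 bp that with its neighbour forms a called region of 107637 and 47. Timp4, inside Syn2, had its nearest interval 18.2 kb away (21197 and 21).

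By their medians, called regions at the ends of these 18 genes were larger in total signal and lower in height than those of all genes. The listed intervals there, which can be pieces of called regions, were wider. For the 18 genes the median of the highest total signal at a gene end was 50629 (23836 to 153759). Over all 10263 autosomal genes with such an interval it was 39647. The median of the highest maximum signal was 36.5 (12 to 58), against 39. Of the 18 genes, 13 were above the median of all genes by total signal and 5 by maximum signal. Those 13 include Mmp11, Mmp19, Mmp24 and Adamts13, where the maximum lay nearer to the end of another gene. They also include Timp2, on chromosome 11 beyond 90 Mb, where the median total signal at gene ends was 104718. The 24 different gene-end intervals had a median width of 3461.5 bp, against 2674 bp over the gene-end intervals of all autosomal genes. The gap between the percentile by total signal and that by maximum was widest for Mmp15 (63.7 and 5.3), followed by Adamts14 (79.2 and 28.8) and Adamts12 (61.4 and 12.0). The listed interval of Mmp15 had 1830 bp. At a maximum of 18 that is too narrow for a total signal of 50829, so it cannot be the whole called region.

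**Figure D4:**
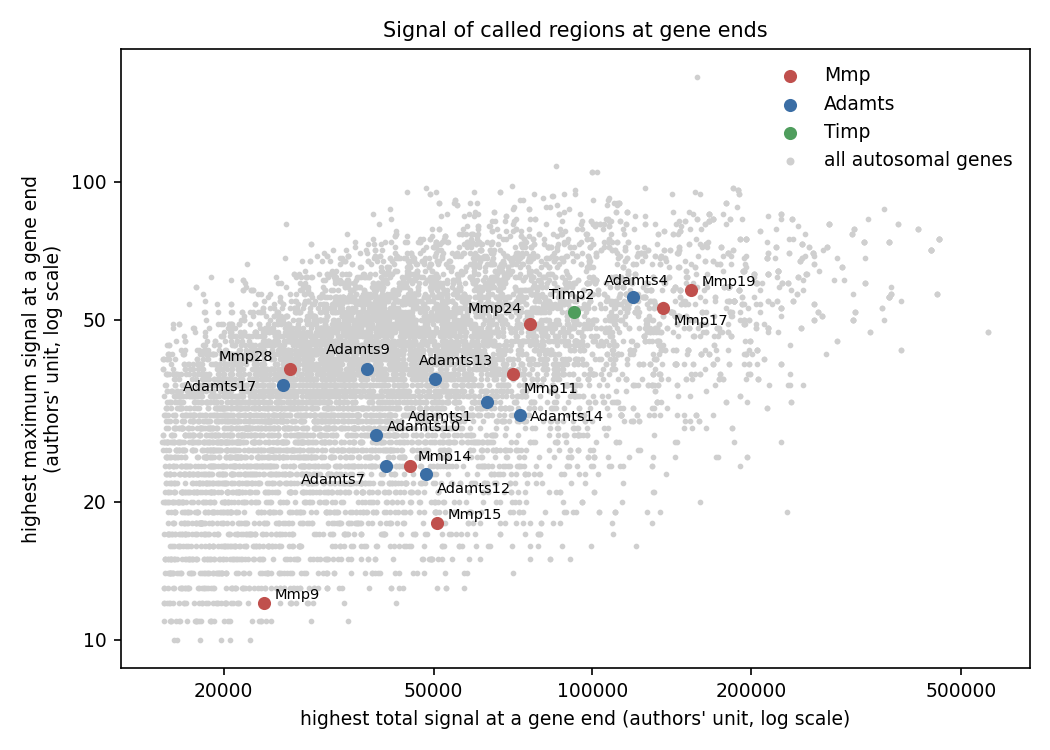
Highest total signal (log scale) against highest maximum signal (log scale) of the called regions within 1 kb of a gene end, in the authors' unit, for the 18 Mmp, Adamts and Timp genes that have one and, in grey, for all 10263 autosomal genes. Mmp19, Mmp17 and Adamts4 lie furthest to the right, and Mmp9 is the lowest of the 18 on both axes.

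The promoter table also gave the strand for 31 of the 45 genes. An interval lay within 1 kb of the 5′ end of 9 of them (29.0%), against 47.2% of 16457 autosomal genes, and within 1 kb of the 3′ end of 5 (16.1%), against 14.3%. Outside the cluster the counts were 9 and 5 of 21 (42.9% and 23.8%). The 5 with a 3′ interval were Mmp11, Mmp14, Mmp24, Mmp28 and Adamts13. In all of them but Mmp14 that interval also came within 1 kb of the end of another protein-coding gene. The 300 bases of the promoter itself were touched by an interval in 9 of 31 genes (29.0%), against 47.7% of all. These were Timp2, Adamts1, Adamts9, Adamts12, Adamts14, Adamts17, Mmp14, Mmp15 and Mmp28.

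Among all autosomal genes coverage of the promoter went with its CpG content, with 6.32% covered below a ratio of 0.25 and 80.1% at 0.75 or more. Below 0.25, 0 of 9 Mmp, Adamts and Timp genes were covered. From 0.25 to 0.5, 2 of 6 were, against 21.0% of all genes there, and from 0.5 to 0.75, 6 of 10, against 59.8%. At 0.75 or more, 1 of 6 was covered, Adamts14. The CpG-rich promoters without an interval were those of Adamts2 (0.948), Adamts20 (0.920), Mmp24 (0.918), Adamts3 (0.915) and Mmp23 (0.782). The promoter used for Adamts20 lies inside the gene. The median ratio was 0.136 in the cluster, where it did not exceed 0.345, against 0.629 over all genes. Of the 9 covered promoters, all but that of Adamts12 (0.253) had a higher ratio than any of the cluster. Uncovered promoters outside the cluster ran from 0.09 (Adamts13) to 0.948 (Adamts2) and overlapped the covered ones.

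**Figure D5:**
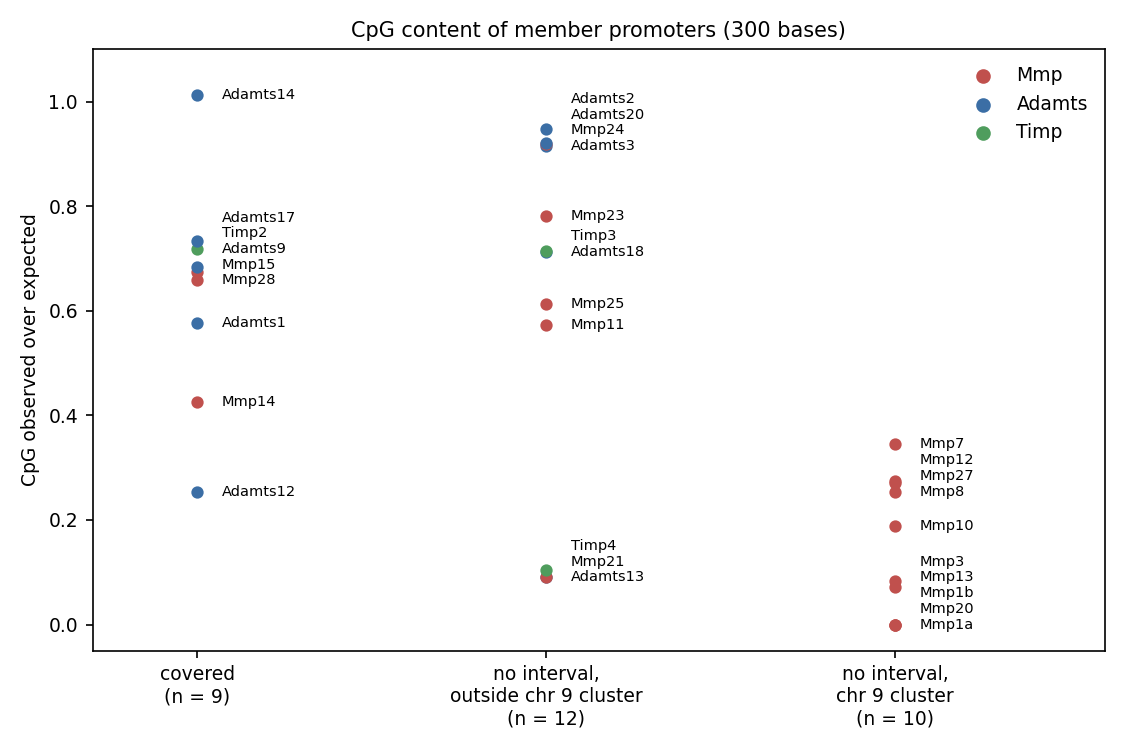
Ratio of observed to expected CpG in the promoters (300 bases) of 31 Mmp, Adamts and Timp genes, split into 9 that an interval covers, 12 without one outside the chromosome 9 cluster and 10 of the cluster. For genes with several promoters the highest ratio is drawn. Mmp7 is the highest of the cluster at 0.345, and the middle column spans nearly the whole range.

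Other genes of matrix turnover had a gene-end interval in 27 of 45 cases, beside the 49.7% of all autosomal genes. In the plasminogen system, whose proteases activate proMmps, 4 of 7 had one, among them the protease inhibitor gene Serpine2 (total signal 34423), while the activator Plau had none. ADAM sheddases had one in 5 of 8, led by Adam9 (44185) and Adam17 (36792). The ADAMTS-like genes, which lack the protease domain, had one in 4 of 5, led by Adamtsl5 (70628) and Adamtsl2 (49812). Astacins had one in 1 of 5, Bmp1 (17569), the procollagen C-proteinase. Each of these sets thus held genes with and without a gene-end interval.

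Cathepsins had one in 3 of 5, led by Ctsd (53789) and Ctsl (30988), and the collagen-degrading Ctsk had none. Among activators and membrane regulators it was 4 of 6, led by Bsg (454788), which encodes the inducer of metalloproteinases basigin, and by the proprotein convertase Furin (63317), which activates membrane-type enzymes. Of the proteoglycan substrates, Bcan (46847) and Vcan (39123) had one and Acan and Ncan had none. Lysyl oxidases, which cross-link collagen, had one in 4 of 5, led by Loxl1 (104646) and Loxl3 (61138). At a gene end, Bsg had a higher total signal than any of the 45 Mmp, Adamts and Timp genes.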

How the data were processed

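The data are ATAC-seq of 6 samples, of which both Ezh2 -/- samples stand behind 1 list of intervals. Those with rescue and of the wild type were not analysed here. Per the submitters' processing notes, the tools were Bowtie2 2.2.9, deepTools and the peak caller SEACR, on the build mm10. No source used here gives their settings, the calling threshold, a control or the way replicates were combined. The fourth column of the deposited list is read as total signal, a score in the authors' unit, and the fifth as maximum signal of the authors' coverage, both in the order SEACR writes. Some called regions appear as several intervals with the same values, and 18.3% of intervals do not overlap their own maximum.

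Genes, strands and promoters came from RefSeq tables of GRCm38, the assembly of mm10. An interval was assigned to a gene with an overlap of at least 1 bp with the 1000 bp on either side of a gene end, with the body between those windows, or with the gene widened by 50 kb. Counts are set beside those of all autosomal protein-coding genes. The members, lists and the rule for named genes were chosen with earlier results of these data known. That rule names every gene of the 3 families, the 3 protein-coding genes on either side of the cluster (Mmp genes of chromosome 9 within 1 Mb of another) and the 2 genes of highest total signal in each further list. A gene that this rule takes is not reported here. No test between samples was possible. Alternatives changed the window, the overlap, the signal threshold and the distance. Software was pandas 2.3.3, numpy 2.4.6 and matplotlib 3.10.9 under Python 3.11.15, and the interval lookup was tested on simulated data.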

Additional observations from a re-analysis of the deposited data

How the results depend on the processing

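With called regions limited to those past the upper quartile in total signal, fewer intervals entered and the counts fell. A gene-end interval remained in 11 of 45 genes, 5 of 23 Mmp genes and 5 of 19 Adamts genes, against 20.8% of all autosomal genes. The 11 were Adamts1, Adamts4, Adamts12, Adamts13, Adamts14, Mmp11, Mmp15, Mmp17, Mmp19, Mmp24 and Timp2. These counts lay above that share by at most a few genes, whereas with all intervals the share of the 45 genes was below (40.0% against 49.7%). With so few genes no reversal is read from them, for the 45 genes or for either family. An interval lay over the body in 13 of 45 genes (19.8% of all) and within 50 kb in 16 of 45 (38.9% of all). Leaving out intervals that reach the end of another gene gave 5 of 23 Mmp genes (21.7%, against 33.3% of all autosomal genes). Of 44 alternative values the other 38 stayed within 1.5 times the reported count or, for the median total signal, within 1 SD. Windows of 2500 bp added Mmp2 and Mmp25. The cluster stayed at 0 gene-end intervals under the window of 2500 bp, the only setting run for it that could add one. The others, which are also counted among the 38, can only remove intervals, so their 0 was fixed in advance. The alternative for the median total signal, 50829 with intervals that hold their maximum, was chosen after the data had been seen. No paired analysis was possible because the list carries no value per replicate.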

Other observations

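Timp1, the inhibitor gene on the X chromosome and therefore outside the autosomal set, had no interval within 50 kb. The nearest, at 20949927 to 20951574 (total signal 15443, maximum 30), was 75.2 kb from the gene, so Timp2 alone of the Timp genes of the table had an interval at a gene end.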
